A study of Sus scrofa with 75 samples.

Results

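miR-150 and miR-342 are microRNAs (miRNAs) of the lymphocyte lineage, and both were read in the small RNA of peripheral blood mononuclear cells (PBMCs) of young pigs. They were found in the table by mature name and are 2 of its 457 mature miRNAs. Each has a single entry in the table. Both had reads in every library and are among the 209 miRNAs that passed the filter on low counts.

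Small RNA of 13 pigs, synthetic large white animals, was sequenced at days 11, 20 and 56 of age, which gives 39 libraries. The control pigs (n = 8) were reared in farrowing crates without soil, and the topsoil pigs (n = 5) were given fresh topsoil daily from day 4 to day 20. Weaning was at day 20 in both groups, and the nursery that followed had no soil, so the day 56 libraries come from weaned pigs that no longer had contact with it. Age and weaning cannot be told apart between days 20 and 56. The PBMCs were taken by density gradient with no sort, so fewer cells of a type and less RNA per cell cannot be told apart in these values. Treatment and age were taken from the column names, which the sample descriptions carry too. The separate characteristics fields give the same treatment and age in 6 of the 39 libraries and were not used. Pigs are named here by treatment and the number in the column name, not by the pig number that ends the sample description.

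An miRNA is a short RNA that is cut from a hairpin and pairs through its seed, bases 2 to 8, with messenger RNAs whose output it lowers. miR-150 is abundant in mature B, T and natural killer cells, is low in their dividing precursors, and is best known for lowering the transcription factor MYB. miR-342 lies inside the gene EVL, an actin regulator, and is present in lymphocytes and other white blood cells. miR-486, which is left out of the library size in one of the scalings below, is an miRNA of red blood cells and their precursors.

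The mature sequences are shown because the 2 miRNAs start alike and yet have different seeds, which are in capitals. They were read from the RefSeq genome and annotation of Sscrofa11.1, the build that the authors used.
miR-150: uCUCCCAAcccuuguaccagug
miR-342: uCUCACACagaaaucgcacccguca
miR-150 has 22 bases at chr6:54580957-54580978 on the minus strand, in the 5′ arm of a hairpin of 77 bases. The nearest annotated gene is FCGRT, 115 bases away on the opposite strand. miR-342 has 25 bases at chr7:121021808-121021832 on the plus strand, in the 3′ arm of a hairpin of 80 bases. That hairpin lies in intron 3 of EVL, on the same strand, in all 7 annotated transcripts. The first 4 bases are shared, and 5 of the 7 seed positions hold the same base. Among the 369 mature miRNA products annotated in this genome, 0 others carry the seed of miR-150 or that of miR-342.

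The libraries held between 1634831 and 13494765 counts over one entry per mature miRNA, and the RNA quality index (RQI) was between 7.4 and 9.9. miR-486 took between 11.8% and 95.5% of these counts. Its share was lower at day 56 than at day 11 in all 13 pigs, with a median of 90.7% at day 11, 85.8% at day 20 and 37.9% at day 56. The counts left for all other miRNAs were between 389906 and 6343113 per library. Every member is therefore given on a scale that divides by the 75% quantile of the tested miRNAs (scaled CPM) and as a share of the counts other than miR-486.

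miR-150 was the more abundant of the pair in every library. Its counts were between 4025 and 130536, against 427 to 7378 for miR-342, so that counting error is small beside the spread between pigs. Ordered by count within a library, miR-150 stood between 7th and 24th place among all miRNAs, and miR-342 between 27th and 63rd. At day 56, miR-150 was between 7th and 11th place in every pig, a narrower range than its 8th to 21st place at day 11 and its 10th to 24th place at day 20.

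By its group medians, miR-150 was lowest at day 20 and highest at day 56. In the control pigs, its scaled CPM at day 11 ran from 1129 to 5551 with a median of 2542. At day 20 it ran from 862 to 3243 with a median of 1785. At day 56 it ran from 2789 to 5432 with a median of 4576. The control pigs thus overlapped between days 11 and 56, while 7 of the 8 values at day 56 lay above the highest value of day 20. In the topsoil pigs 1 to 5, the scaled CPM at day 11 was 3302, 2575, 4167, 1212 and 1750. At day 20 it was 3277, 1384, 2329, 1061 and 1955. At day 56 it was 3125, 3750, 6722, 5755 and 4067. Topsoil pig 1 stayed near one level at all 3 ages on this scale, though not as a share of the counts other than miR-486 (2.04%, 1.31% and 1.47%), and the other 4 topsoil pigs were above every day 20 value of their group at day 56.

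**Figure D1:**
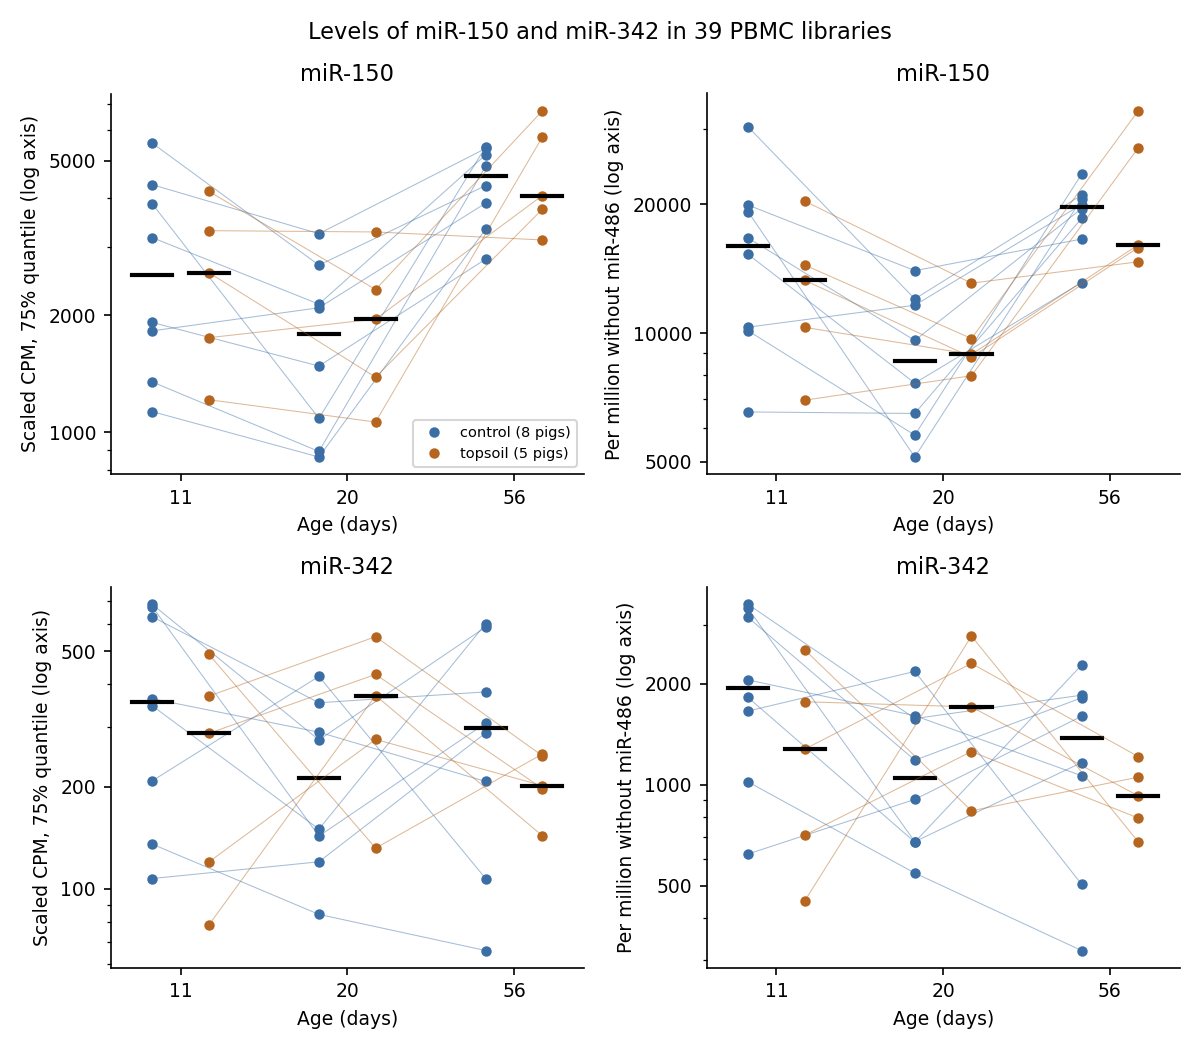
Level of miR-150 (top) and miR-342 (bottom) in each library on log axes, as CPM scaled by the 75% quantile (left) and as CPM of the counts other than miR-486 (right), against age in days. Points are libraries, thin lines join the libraries of a pig, and black bars are group medians. miR-150 is lowest at day 20 and highest at day 56 by its medians in both treatments, while the lines of miR-342 cross in both directions.

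The age of the pigs was the first comparison, and it separated the 2 miRNAs. miR-150 rose between days 20 and 56, by a log2 fold change of 1.35 ± 0.23 (SE; adjusted p = 0.000106, edgeR quasi-likelihood test with pig as a block), and its scaled CPM was higher at day 56 in 12 of 13 pigs. It was one of 34 called among the 209 miRNAs tested (16.3%), of which 21 were higher (10.0%), and held the third smallest p-value of all. Between days 11 and 56 it rose by 0.87 ± 0.21 (adjusted p = 0.00292), with higher values in 11 of 13 pigs. That comparison called 53 miRNAs (25.4%), 36 of them higher (17.2%). From day 11 to day 20 the estimate for miR-150 was -0.48 ± 0.21, with lower values in 11 of 13 pigs. It did not pass the threshold (unadjusted p = 0.0273, adjusted p = 0.739), and neither did any other miRNA in that edgeR comparison (0%, with 12 at an unadjusted p under 0.05, 5 called by DESeq2 and 2 by limma).

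miR-342 passed the threshold in none of these 3 edgeR comparisons. Its scaled CPM in the control pigs ran from 107 to 686 at day 11 with a median of 354, from 84.2 to 421 at day 20 with a median of 212, and from 65.9 to 602 at day 56 with a median of 297. In the topsoil pigs 1 to 5, it was 287, 489, 369, 78.4 and 120 at day 11. At day 20 it was 427, 132, 551, 370 and 275. At day 56 it was 197, 249, 246, 143.4 and 201. The groups overlapped at all ages, and the topsoil pigs lay closer together at day 56 than at the earlier ages. Over all pigs, the log2 fold change was -0.08 ± 0.30 between days 11 and 20 (adjusted p = 0.954), -0.12 ± 0.31 between days 20 and 56 (adjusted p = 0.822) and -0.20 ± 0.29 between days 11 and 56 (adjusted p = 0.659). These errors leave room for a change of either sign. Pigs went both ways: 6 of 13 were higher at day 20 than at day 11, 6 of 13 higher at day 56 than at day 20, and 4 of 13 higher at day 56 than at day 11.

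Within each treatment, from the same fit, miR-150 rose between days 20 and 56 in the control pigs, by 1.40 ± 0.27 (adjusted p = 0.000451) and in 8 of 8 animals. It also rose in the topsoil pigs, by 1.31 ± 0.35 (adjusted p = 0.0249) and in 4 of 5. These comparisons called 12.4% of the 209 miRNAs in the control pigs (26) and 9.57% in the topsoil pigs (20). The control count was 14 without control pig 2 and 13 without control pig 7, and the topsoil count was 12, 13, 5 and 6 without topsoil pig 1, 2, 4 or 5. Without topsoil pig 4 the value in the topsoil pigs was 0.97 with an adjusted p of 0.20. Between days 11 and 56, miR-150 rose by 0.77 ± 0.28 in the control pigs (adjusted p = 0.0563, 17.7% of miRNAs called) and by 0.97 ± 0.33 in the topsoil pigs (adjusted p = 0.0533, 13.4% called). Both of these calls stand close to the limit of 0.10 and are lost under other scalings. They are also lost without control pig 5, 6, 7 or 8 (adjusted p of up to 0.275) and without topsoil pig 4 or 5 (up to 0.304). The counts behind these shares were 37 in the control pigs, against 24 without control pig 7, and 28 in the topsoil pigs, against 18 without topsoil pig 2 and 15 without topsoil pig 5.

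For miR-342, the estimates of the 2 treatments had opposite signs over the first 2 intervals and the same sign between days 11 and 56 (-0.18 ± 0.38 in the control and -0.23 ± 0.45 in the topsoil pigs), and none passed the threshold. Its estimate between days 11 and 20 was -0.61 ± 0.36 in the control pigs (5.26% of all miRNAs called, 11 in number) and 0.44 ± 0.50 in the topsoil pigs (0% called by edgeR, with 6 at an unadjusted p under 0.05, 5 called by DESeq2 and 0 by limma). The 11 calls in the control pigs ranged from 0 to 18 with a pig left out, being 0 without control pig 2 or 8, 1 without control pig 3 or topsoil pig 5, 2 without control pig 1 or 6, 4 without control pig 4, 18 without control pig 5, and 7 and 5 without topsoil pigs 2 and 3. They were 2 with TMM and 30 with limma. Between days 20 and 56 the estimate for miR-342 was 0.43 ± 0.38 in the control and -0.67 ± 0.47 in the topsoil pigs. Its scaled CPM was higher at day 20 than at day 11 in 2 of 8 control and 4 of 5 topsoil pigs, and higher at day 56 than at day 20 in 5 of 8 control and 1 of 5 topsoil pigs. At day 20 it ran from 84.2 to 289 in libraries with 212 to 253 miRNAs read. In those with 140 to 179 it ran from 275 to 551. Of the control pigs, 3 and 4 were in the latter, and of the topsoil pigs, all but pig 2. The part of this imbalance in the signs was not tested. The difference between treatments was tested itself: the extra change in the topsoil pigs was 1.06 ± 0.63 between days 11 and 20 (adjusted p = 0.673) and -1.10 ± 0.58 between days 20 and 56 (adjusted p = 0.403). Of all 209 miRNAs, edgeR called 0 for either extra change. DESeq2 called 4 and 12, and limma 0 and 5.

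The interaction of treatment and age was the question the study put to every miRNA, and neither member was called for it. The test gave miR-342 an adjusted p of 0.568 (0.128 unadjusted) and miR-150 one of 0.975 (0.788 unadjusted). In this edgeR fit 0 of the 209 miRNAs were called, with 22 at an unadjusted p under 0.05, while DESeq2 called 0 and limma 2. In simulated counts this test called 70 of 200 miRNAs that were changed 4-fold, so it can miss changes.

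Topsoil and control pigs were then compared at each age, with the 13 libraries of that age. The log2 fold change of miR-150 in topsoil against control was -0.16 ± 0.41 at day 11, 0.19 ± 0.38 at day 20 and 0.10 ± 0.25 at day 56. For miR-342 it was -0.46 ± 0.52, 0.52 ± 0.41 and -0.66 ± 0.42 at the same ages. The adjusted p was between 0.606 and 0.989 over these 6 values, and the groups overlapped in each. At day 11, 0% of miRNAs were called by edgeR (7 at an unadjusted p under 0.05, and 1 called by DESeq2). At day 20, 0.957% were called, and at day 56, 0% (5 at an unadjusted p under 0.05, and 0 called by DESeq2).

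Scaling decided how miR-342 looked, since miR-486 took so much less of the counts at day 56. With total counts as library size, the 209 miRNAs had a median log2 fold change of 2.38 between days 11 and 56 and 1.79 between days 20 and 56, and 77.5% and 51.7% of miRNAs were called. Scaled that way, miR-342 gave 1.85 ± 0.41 (adjusted p = 0.000215) between days 11 and 56 and 1.66 ± 0.45 (adjusted p = 0.00445) between days 20 and 56, the opposite sign to the values above. Both lay below the median of all miRNAs, by 0.54 and 0.13. miR-150 gave 2.85 ± 0.46 and 2.92 ± 0.51, which lay above that median by 0.47 and 1.13.

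With the counts other than miR-486 as library size, the median of all miRNAs was 0.14 between days 11 and 56 and 0.01 between days 20 and 56. miR-150 then rose by 1.13 ± 0.22 between days 20 and 56 (adjusted p = 0.00033, 15.3% of miRNAs called) and was higher at day 56 in all 13 pigs. From day 11 to day 56 it rose by 0.54 ± 0.21 (adjusted p = 0.0734, 20.1% called) and was higher in 9 of 13. The split of all calls moved too, from 36 higher and 17 lower to 16 higher and 26 lower between days 11 and 56, and from 21 higher and 13 lower to 10 higher and 22 lower between days 20 and 56. Relative to the median of all miRNAs, the rise of miR-150 between days 20 and 56 was 1.10 with the 75% quantile, 1.11 with TMM and 1.11 without miR-486. The value of miR-342 relative to that median between days 11 and 56 was -0.67, -0.68 and -0.66 under the same 3 scalings. Within one treatment, the rise of miR-150 between days 11 and 56 without miR-486 was 0.34 in the control pigs (adjusted p = 0.486) and 0.74 in the topsoil pigs (adjusted p = 0.153), and neither passed.

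**Figure D2:**
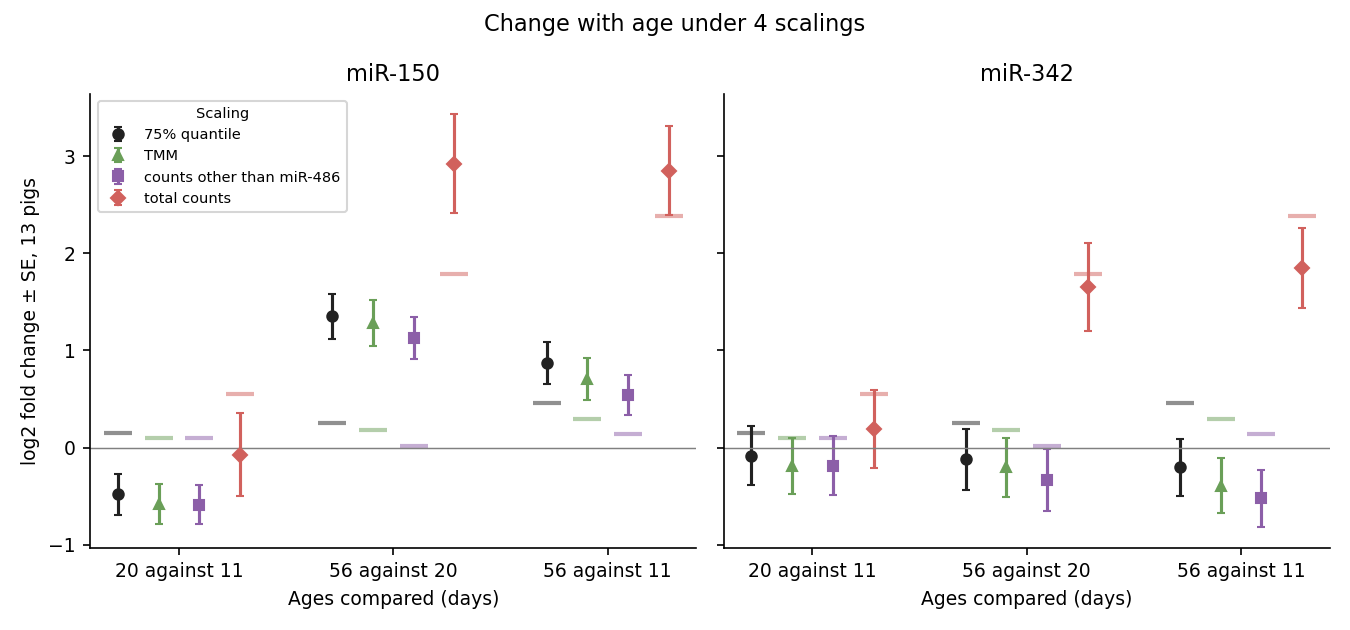
Log2 fold change of miR-150 (left) and miR-342 (right) over 13 pigs for 3 pairs of ages, under 4 scalings. Symbols are estimates, error bars are SE, and the pale dashes are the medians of the 209 miRNAs under the same scaling. With total counts the dashes reach 1.79 and 2.38, where miR-150 lies above its dash and miR-342 below, while both lie below it for day 20 against 11.

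As shares of the counts other than miR-486, miR-150 made up between 0.654% and 3.03% in the control pigs at day 11, between 0.513% and 1.40% at day 20 and between 1.31% and 2.35% at day 56. Its share in the topsoil pigs was between 0.697% and 2.04% at day 11, between 0.795% and 1.31% at day 20 and between 1.47% and 3.31% at day 56. The topsoil pigs did not overlap between days 20 and 56 on this scale. The share of all miRNAs without overlap is not given here. The test of this comparison, a different measure, called 6.22% of all miRNAs with the same library sizes. miR-342 made up between 0.0622% and 0.345% in the control pigs at day 11, between 0.0545% and 0.218% at day 20 and between 0.0320% and 0.227% at day 56. Its share in the topsoil pigs was between 0.0451% and 0.252%, between 0.0836% and 0.277%, and between 0.0675% and 0.121% at these ages, and the ages overlapped.

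The ratio of miR-150 to miR-342 within a library depends neither on the scaling nor on miR-486. At day 20 it differed with the number of miRNAs read in a library. Libraries with 140 to 179 miRNAs read had ratios of 2.87 to 7.67. Those with 212 to 253 had ratios of 7.17 to 14.2, and the cause was not tested. Over all libraries the ratio ran from 2.87 to 73.3 with a median of 10.5. In the control pigs, the ratio ran from 5.03 to 10.5 at day 11 with a median of 8.99, from 3.51 to 14.2 at day 20 with a median of 7.61, and from 8.604 to 73.3 at day 56 with a median of 14.6. In the topsoil pigs 1 to 5 it was 11.5, 5.26, 11.3, 15.5 and 14.6 at day 11. At day 20 it was 7.67, 10.5, 4.23, 2.87 and 7.10. At day 56 it was 15.8, 15.0, 27.3, 40.1 and 20.2. All 5 topsoil values at day 56 were above every topsoil value of day 20.

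The ratio was 2.61-fold higher at day 56 than at day 20, a mean log2 difference of 1.39 ± 1.34 (SD of the within-pig differences, n = 13 pigs; exact sign-flip permutation test, two-sided, p = 0.00293, adjusted p = 0.00879). It was higher in 11 of 13 pigs, the exceptions being control pigs 1 and 6. The day 56 libraries of these 2 pigs had 156 and 149 miRNAs with a read, against 215 to 263 in the others. Compared with day 11, the ratio at day 56 was 2.10-fold higher, by 1.07 ± 0.84 on the log2 scale (same exact test, p = 0.000488, adjusted p = 0.00293), and it was higher in 12 of 13 pigs. The part of the number of miRNAs read in these rises was not tested. The mean difference from day 11 to day 20 was -0.31 ± 1.04 (exact test, adjusted p = 0.362), with 6 pigs higher and 7 lower. The adjustment was over 6 tests of the ratio.

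The highest ratio, 73.3, was that of control pig 7 at day 56, the library with the fewest counts (1634831), which held 31336 counts of miR-150 and 427 of miR-342. Without this pig the mean log2 difference was 1.27 between days 20 and 56 (exact test, adjusted p = 0.0176) and 0.92 between days 11 and 56 (exact test, adjusted p = 0.00586).

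The ratio in topsoil against control pigs differed by 0.48 on the log2 scale at day 11 (exact test over all relabellings of the pigs, two-sided, adjusted p = 0.241), by -0.47 at day 20 (exact test, adjusted p = 0.362) and by 0.39 at day 56 (exact test, adjusted p = 0.464). Without topsoil pig 2, whose ratio at day 11 was 5.26 against 11.3 to 15.5 in the other 4 topsoil pigs, the day 11 difference was 0.74 (exact test, adjusted p = 0.0202). A test chosen after the values were seen compared the within-pig change of the ratio between treatments. From day 11 to day 20 the mean change was 0.05 ± 0.75 (SD, n = 8) in the control and -0.90 ± 1.26 (SD, n = 5) in the topsoil pigs, which was not past the threshold (exact permutation test, adjusted p = 0.352). From day 20 to day 56 it was 1.06 ± 1.31 and 1.91 ± 1.33 (exact permutation test, adjusted p = 0.410).

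**Figure D3:**
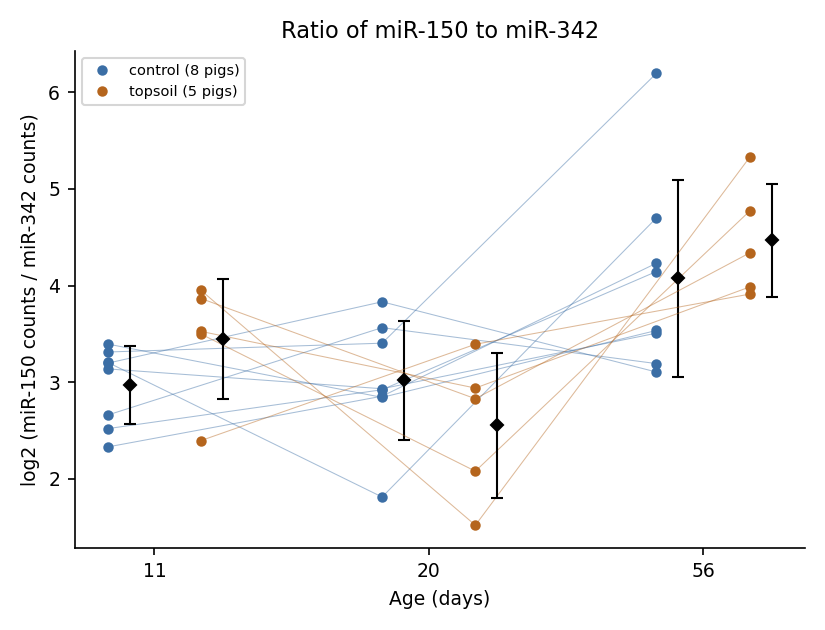
Log2 ratio of miR-150 to miR-342 counts in each library against age in days. Points are libraries, thin lines join the libraries of a pig, and black diamonds with bars are the mean and SD of each treatment (n = 8 control, n = 5 topsoil). The ratio is higher at day 56 than at day 11 in 12 of 13 pigs, and the highest point is control pig 7 at day 56.

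Whether the 2 miRNAs varied together between pigs was asked at each age, over 13 pigs. Both values of a pig share its library and its scaling. At day 11 they rose and fell together, with Pearson's r = 0.885 (permutation test with 100000 resamples, p = 0.00014, adjusted over 3 ages p = 0.00042) and Spearman's rho = 0.874 (permutation p = 0.00025, adjusted p = 0.00075). Without the 2 pigs farthest from the median of miR-150, r was 0.852. The day 11 libraries had either 147 to 173 or 212 to 226 miRNAs with a read. In the former, miR-342 ran from 287 to 686 scaled CPM and miR-150 from 1822.5 to 5551. In the latter, miR-342 ran from 78.4 to 208 and miR-150 from 1129 to 1916. The part of this split in r was not tested. At day 20, r was 0.625 (permutation p = 0.0248, adjusted p = 0.0373) and rho was 0.599 (permutation p = 0.0341, adjusted p = 0.0512). Without the 2 farthest pigs r was 0.372. Leaving them out also narrows the range of miR-150, which can lower r, so it cannot tell whether the relation rests on those pigs. The same step took r from 0.448 to 0.406 without miR-486 in the library size and from 0.561 to 0.527 with TMM, neither of which had passed an adjusted p of 0.05 before it. The relation on the 75% quantile scale was also no longer past an adjusted p of 0.05 with any 1 of control pigs 2, 3, 5, 7 and 8 or topsoil pigs 1, 2 and 3 left out, when r ran from 0.524 to 0.621. At day 56, r was 0.272 (permutation p = 0.370, adjusted p = 0.370) and rho was 0.280 (permutation p = 0.354, adjusted p = 0.354), and without the 2 farthest pigs r was 0.120. With counts other than miR-486 as library size, r was 0.853 at day 11 (permutation test, adjusted p = 0.00084), 0.448 at day 20 (adjusted p = 0.187, permutation) and 0.0154 at day 56 (permutation, adjusted p = 0.961). Whether r differed between ages was not tested. In the 8 control pigs alone, r was 0.934 at day 11 (exact permutation test, adjusted p = 0.00365), 0.698 at day 20 and 0.448 at day 56, and no correlation was computed over the 5 topsoil pigs alone.

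**Figure D4:**
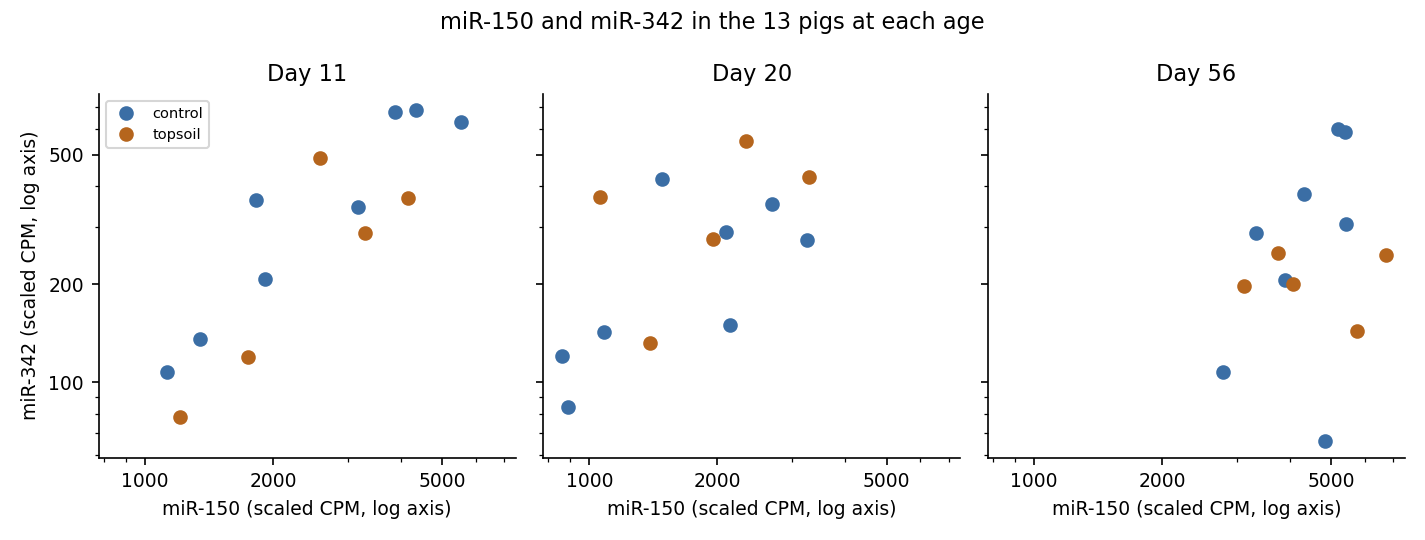
Scaled CPM of miR-342 against that of miR-150 at days 11, 20 and 56, on log axes, 1 point per pig, coloured by treatment. The points line up at day 11 (r = 0.885), less so at day 20 (r = 0.625), and scatter at day 56 (r = 0.272).

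Over all 39 libraries, which hold 3 from each pig, Spearman's rho between the 2 members was 0.42 on the scaled values. By that measure miR-342 stood in place 29 among the tested miRNAs most like miR-150, and miR-150 in place 27 among those most like miR-342. The 5 miRNAs most like miR-150 were miR-92b-3p (rho = 0.817), miR-181a (0.780), miR-146a-5p (0.764), miR-23a (0.729) and miR-181b (0.727), where the median over 207 other miRNAs was 0.0885. Of these, 4 were also among the 5 most like it with counts other than miR-486 as library size, where miR-221-3p took the place of miR-181b. miR-181a and miR-181b belong to a family known in developing lymphocytes, and miR-146a-5p is known to damp innate immune signals.

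The 5 miRNAs most like miR-342 were others: miR-191 (rho = 0.832), miR-30e-3p (0.763), miR-10a-5p (0.748), miR-9841-3p (0.730) and miR-28-3p (0.707), with a median of -0.132 over the 207. Here too 4 of 5 were kept without miR-486, with miR-10b in place of miR-28-3p. Within each age taken alone, rho with miR-191 was 0.797 at day 11, 0.918 at day 20 and 0.907 at day 56. For miR-150 it was 0.720, 0.868 and 0.418 with miR-92b-3p and 0.918, 0.868 and 0.275 with miR-181a at these ages. It was 0.5385, 0.835 and 0.357 with miR-146a-5p, 0.670, 0.418 and 0.121 with miR-23a, and 0.791, 0.890 and 0.159 with miR-181b. The points of all these values share libraries and their depth, and they are descriptions of these libraries.

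Other miRNAs known from blood cells were set beside the pair by 5 lists. In the lymphocyte-associated list, which leaves out miR-150 and miR-342, 6 of 16 tested miRNAs were called higher between days 20 and 56 and 0 lower, with a median log2 fold change of 0.67 against 0.26 over all 209, of which 10.0% were called higher. Between days 11 and 56, 8 were called higher and 0 lower, with a median of 0.86 against 0.46 over all, of which 17.2% were called higher. Without miR-486 in the library size, 4 were called higher and 1 lower between days 11 and 56, where 7.66% of all miRNAs were called higher and 12.4% lower. The most abundant miRNA of the list, miR-181a, rose by 0.95 ± 0.21 between days 20 and 56 (adjusted p = 0.00133), miR-181b by 0.71 ± 0.18 (adjusted p = 0.00511) and miR-26a by 0.63 ± 0.24 (adjusted p = 0.0792). Again without miR-486 in the library size, 4 of the 16 were called higher between days 20 and 56 (4.78% over all miRNAs), and miR-26a was not among them (0.37, adjusted p = 0.398).

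The pan-leukocyte list holds the 2 arms of miR-142, which is found throughout white blood cells. miR-142-5p rose by 1.17 ± 0.25 between days 20 and 56 (adjusted p = 0.00102), while miR-142-3p, with fewer reads, gave 0.13 ± 0.44. In the myeloid list 4 of 9 were called higher between days 20 and 56 (10.0% over all miRNAs) and 0 lower, and 2 of 9 were higher without miR-486 in the library size (4.78% over all miRNAs). The list was led in abundance by miR-21-5p with 0.92 ± 0.20 (adjusted p = 0.00135), an miRNA that lymphocytes hold as well. In the erythroid list 3 of 5 were called lower (6.22% over all miRNAs) and 0 higher. Without miR-486 in the library size 4 were called lower, where 22 of all 209 miRNAs were. With total counts 1 was called lower and 1 higher, where 1 and 107 of all 209 miRNAs were. In that list miR-486 fell by 3.06 ± 0.57 on the log2 scale (adjusted p = 0.000217) with the 75% quantile and by 1.12 with total counts. In the platelet and vessel wall list 1 of 5 was called lower (6.22% over all miRNAs), miR-143-3p with -1.07 ± 0.38 (adjusted p = 0.0584). Its sign turned to 0.76 with total counts (adjusted p = 0.245). The rest of the list, each at a mean of 7.19 scaled CPM or less, did not pass and went both ways. The values were 2.65 ± 1.07 for miR-126-5p, 1.82 ± 1.61 for miR-126-3p and -1.485 ± 1.58 for both miR-199a-3p and miR-199b-3p.

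The summed levels of these lists are given as ranges over pigs and were not tested. The erythroid list made up 66.5% to 95.7% of all counts in the control pigs at day 20 and 18.7% to 75.9% at day 56, and 75.2% to 95.7% and 12.5% to 51.5% in the topsoil pigs. The myeloid list made up 1.43% to 3.20% of the counts other than miR-486 in the control pigs at day 20 and 1.03% to 3.14% at day 56. In the topsoil pigs it made up 0.971% to 2.13% and 2.47% to 3.23%, with no overlap. The share of all miRNAs without overlap is not given here. The lymphocyte-associated list made up 13.9% to 34.7% of the counts other than miR-486 in the control pigs at day 20 and 29.9% to 52.9% at day 56, and 16.3% to 35.8% and 26.1% to 40.5% in the topsoil pigs. The pan-leukocyte list made up 0.523% to 1.23% and 0.679% to 3.36% in the control pigs, and 0.476% to 1.10% and 1.09% to 1.89% in the topsoil pigs. The platelet and vessel wall list stayed at or below 0.101% in all of these libraries. miR-146a-3p, miR-24-2-5p and miR-143-5p were at 0 in every library. The part of cell mixture in the rise of miR-150 was not tested.

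**Figure D5:**
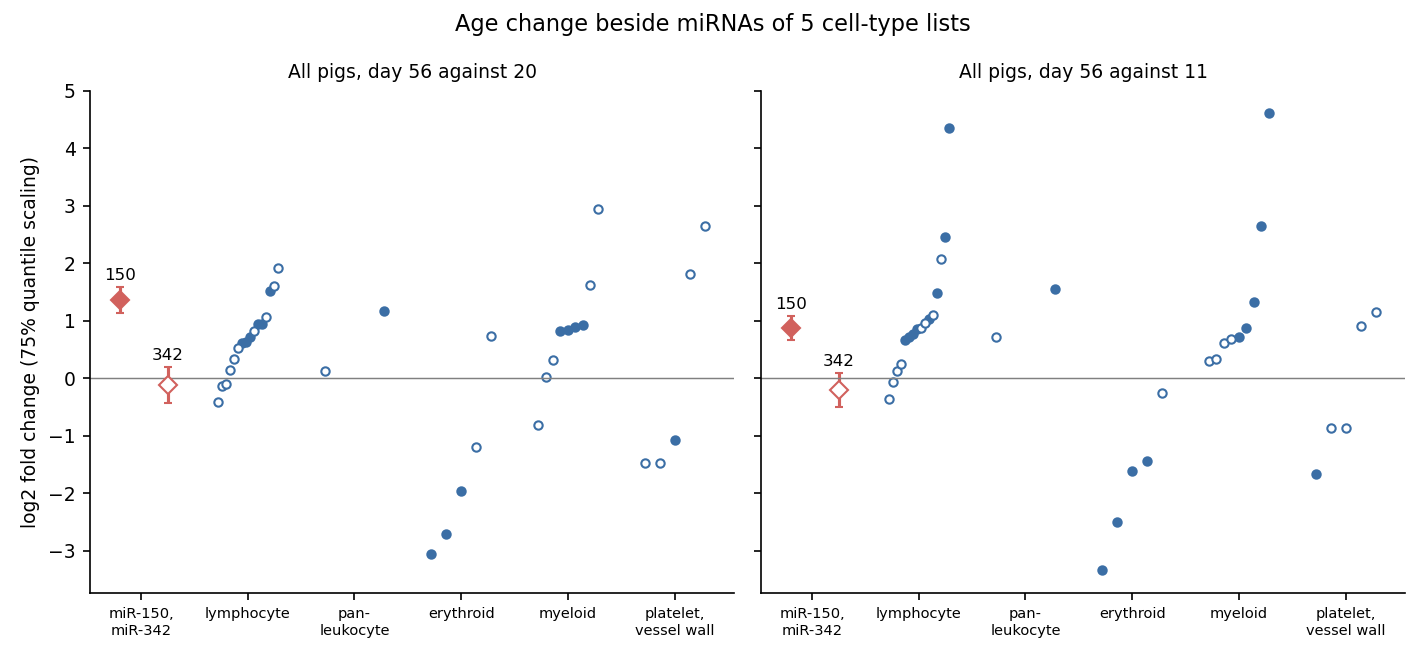
Log2 fold change over all pigs of miR-150 and miR-342 (red diamonds with SE) and of the tested miRNAs of 5 cell-type lists (blue circles) for day 56 against 20 (left) and day 56 against 11 (right), with the 75% quantile scaling. Filled symbols have an adjusted p under 0.10, and in both panels the filled circles of the lymphocyte, pan-leukocyte and myeloid lists lie above 0 and those of the erythroid list below.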

How the data were processed

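The authors trimmed reads with Trim Galore 0.4.5 and mapped them to Sscrofa11.1 with miRDeep2, and they deposited the counts per mature miRNA and hairpin with no normalization. A mature name with several entries was kept once, as the entry with the largest total, which left 457 miRNAs. The test took the 209 miRNAs that were read in 17 libraries or more and averaged over 2 reads. The mRNA table was not used here.

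Scaling was by the 75% quantile, and the model was fitted in R 4.3.3 with edgeR 4.0.16 (quasi-likelihood, Benjamini-Hochberg, false discovery rate 0.10), with pig as a block, age, treatment by age and RQI. The study's methods have pig as a random term, with parity, sex and litter size. Treatments at one age were fitted with RQI alone. Samples with the same pig number are the same animal. Once group means were removed, libraries correlated by 0.0672 on average within a pig and by -0.00756 across pigs. Exact and permutation tests used Python 3.11.15 with scipy 1.17.1, with a pseudocount of 0.5 for the ratio. In simulated counts with 40 of 209 miRNAs changed 4-fold, drawn 5 times, the comparison of days 11 and 56 called 137 of 200 changed miRNAs and 15 unchanged ones, that of treatments at day 20 called 111 and 23, and the interaction 70 and 7.

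Alternatives were TMM, total counts, library sizes without miR-486, DESeq2 1.42.0, limma 3.58.1 (pig as random), other filters, no RQI, every entry, no block and each pig left out. The pair, the lists and the tests were chosen with earlier results of these data known. Named miRNAs are the members, miR-486, the 5 most like each member over the 39 libraries, the 3 most abundant of the lymphocyte list and the most abundant of each other list. The replacements among the 5 most alike, miR-142-3p, the miRNAs at 0, miR-126-5p, miR-126-3p, miR-199a-3p and miR-199b-3p were named after their values were seen. The grouping of libraries by the number of miRNAs read was also made after the values were seen. Reads carry no molecular identifiers, so counting error understates the error of low counts.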

Additional observations from a re-analysis of the deposited data

How the results depend on the processing

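The rise of miR-150 between days 20 and 56 and between days 11 and 56 over all pigs passed the threshold under every alternative that was run, with log2 values of at least 1.13 and 0.54, and with each pig left out. The rise of the ratio over both intervals passed throughout as well. The rise of miR-150 within one treatment between days 11 and 56 was less firm. In the control pigs (0.77) it did not pass with TMM (0.58), without miR-486 in the library size (0.34), with DESeq2 (0.50), with no filter (0.65), with a mean of at least 10 reads (0.60), with every entry (0.73) or with no replicate block (0.57), and it ran from 0.55 to 0.94 with a pig left out, not passing without control pig 5, 6, 7 or 8. In the topsoil pigs (0.97) it did not pass under the same settings other than DESeq2 (0.83, 0.74, 0.91, 0.94, 0.92 and 0.84), and ran from 0.62 to 1.18 with a pig left out, not passing without topsoil pig 4 or 5. Between days 20 and 56 in the topsoil pigs the range was 0.97 to 1.62. DESeq2 called the fall of miR-150 in the control pigs between days 11 and 20 (-0.89), which total counts turned to 0.11.

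Of miR-342, no value that was past the threshold turned, since none was. With total counts its sign turned between days 11 and 20 (0.19), 20 and 56 (1.66) and 11 and 56 (1.85) over all pigs, between days 11 and 20 (0.021) and 11 and 56 (1.495) in the control pigs, between days 20 and 56 (1.84) and 11 and 56 (2.20) in the topsoil pigs, and in topsoil against control at day 20 (-0.62) and day 56 (0.039). miR-150 in topsoil against control at day 20 turned to -1.002. Between days 20 and 56 over all pigs, miR-342 also turned with a mean of at least 10 reads (0.015) and with limma (0.044). Leaving out 1 pig at a time, the ranges of miR-342 that crossed 0 were -0.35 to 0.18 (days 11 to 20), -0.36 to 0.065 (20 to 56) and -0.35 to 0.044 (11 to 56) over all pigs, and -0.10 to 0.96 (11 to 20) and -0.47 to 0.19 (11 to 56) in the topsoil pigs. Those of miR-150 in topsoil against control were -0.38 to 0.15, -0.14 to 0.45 and -0.077 to 0.22 at days 11, 20 and 56. The ratio in topsoil against control ran from 0.35 to 0.74 at day 11, from -0.68 to -0.21 at day 20 and from 0.17 to 0.69 at day 56. The cause of these turns was not tested, other than that total counts include miR-486.

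With no replicate block, miR-150 over all pigs was 1.21 between days 20 and 56 and 0.70 between days 11 and 56, both past the threshold, and the block changed no other call than the 2 named above. The relation of day 20 (r = 0.625), read at an adjusted p of 0.05, did not pass without miR-486 (0.448), with TMM (0.561) or in the control pigs only (0.698), and ran from 0.524 to 0.747 with a pig left out. TMM turned the r of day 56 to -0.133. Counts of called miRNAs moved by over 1.5 times as follows. Between days 11 and 20 over all pigs, 0 were called, against 5 with DESeq2, 2 with limma and 1 with no block. Between days 20 and 56, 34 were called, against 59 with DESeq2 and 108 with total counts. Between days 11 and 56, 53 were called, against 162 with total counts. For topsoil against control, 0 against 1 with DESeq2 were called at day 11. At day 20, 2 were called, against 9 with DESeq2 and 1 under 6 other settings, and 0 to 6 with a pig left out. The interaction called 0, against 2 with limma. The extra change in the topsoil pigs called 0 between days 11 and 20, against 4 with DESeq2. Between days 20 and 56 it called 0, against 12 with DESeq2, 5 with limma and 1 without control pig 6. In the control pigs, 11 were called between days 11 and 20, against 2 with TMM, without miR-486 or with every entry, 1 with no filter or a mean of at least 10 reads, 0 with total counts, 30 with limma and 0 to 18 with a pig left out. Between days 20 and 56 they had 26, against 45 with DESeq2, 7 with total counts and 13 to 28 with a pig left out, and between days 11 and 56 they had 37, against 60 with limma, 24 with a mean of at least 10 reads, 102 with total counts and 24 to 42. The topsoil pigs had 0 calls between days 11 and 20, against 5 with DESeq2. Between days 20 and 56 they had 20, against 38 with DESeq2, 33 with limma, 13 without miR-486, 12 with every entry, 10 with no filter, 106 with total counts and 5 to 30 with a pig left out, and between days 11 and 56 they had 28, against 17 with no filter, 137 with total counts and 15 to 30. The shallowest library held 389906 counts other than miR-486.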

Other observations

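In the lymphocyte-associated list, 3 further miRNAs were called higher between days 20 and 56 beside the 3 most abundant ones: miR-29a-3p (1.51 ± 0.31, adjusted p = 0.000905, edgeR), miR-146a-5p (0.95 ± 0.22, adjusted p = 0.00261) and miR-26b-5p (0.61 ± 0.18, adjusted p = 0.022). They were named after their values were seen, and 10.0% of all miRNAs were called higher in this comparison. Without miR-486 in the library size the list had 4 of its 16 tested miRNAs called higher in place of 6 (4.78% over all miRNAs), and miR-26a and miR-26b-5p no longer passed. miR-29a-3p belongs to a family known to lower transcripts of extracellular matrix and of interferon gamma. miR-155-5p, an miRNA of activated lymphocytes, averaged under 1 scaled CPM over the 39 libraries and gave 0.52 ± 1.13 (adjusted p = 0.805). miR-28-3p, which is among the 5 most like miR-342, gave -0.11 ± 0.20 (adjusted p = 0.784), close to the -0.12 of miR-342 itself.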
